A study of Mus musculus with 12 samples.

Results

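The genes described here are 9 enzymes that break down amino acids in liver: Sds, Hal, Uroc1, Amdhd1, Ftcd, Tat, Hpd, Tdo2 and Gls2. They were chosen by name from hepatic pathways of serine, histidine, tyrosine, tryptophan, phenylalanine and glutamine breakdown. No measured value entered the rule, but the choice was made with earlier results of these data known. Each symbol matched 1 of the 54839 features counted, and all 9 were among the 17121 genes tested. After CCl4, Tom+ hepatocytes held 2.07 to 2.62 times less Sds, Ftcd and Gls2 RNA than Tom- hepatocytes, a difference called for 1.74% of all genes tested. The 6 genes of serine, histidine and glutamine breakdown were lower in every Tom+ library than in any Tom- library. That was in CPM, counts scaled to library size with TMM normalization factors. This held for Hal only narrowly, and not in TPM, which scale counts to gene length and library size. Of all genes, 14.6% showed the same in CPM. Tat, Hpd and Tdo2, which act on tyrosine and tryptophan, overlapped between the fractions.

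The data were bulk RNA-seq of hepatocytes sorted by FACS from male p16-Tom mice on a C57BL/6 background, in 4 groups of 3 libraries. All mice carried a heterozygous p16-CreERT2 allele and the R26-CAG-LSL-tdTomato-WPRE reporter and received tamoxifen, so that a cell with an active p16 locus at that time turned red and stayed red. The groups were Tom- and Tom+ hepatocytes of mice injected with corn oil and Tom- and Tom+ hepatocytes of mice injected repeatedly with CCl4, a solvent that injures hepatocytes near the central vein. Dead cells had been removed by DAPI staining. The red label follows the p16 promoter and not p16 protein, ages were not given in the sources used here, and the sources do not say whether same-numbered Tom+ and Tom- libraries came from 1 mouse. As nothing states that libraries of a group came from separate animals, p-values measure the spread between these libraries.

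Amino acids that are not used for protein are broken down mainly in hepatocytes, where their nitrogen goes to urea and their carbon to glucose or the citric acid cycle. Histidine is deaminated by Hal to urocanate, which Uroc1, Amdhd1 and Ftcd turn into glutamate and a one-carbon unit on folate. Sds turns serine into pyruvate and ammonia, Gls2 releases ammonia from glutamine, Tat and Hpd carry out the first steps of tyrosine breakdown, and Tdo2 opens the ring of tryptophan. Breakdown of histidine and serine and release of ammonia from glutamine are known to be strongest in hepatocytes around the portal tract (zone 1), whereas glutamine is made around the central vein (zone 3).

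Total counts ranged from 37568669 to 75331523 per library. Reporter counts went against the labels of Tom- oil replicate 1 (1794 CPM) and Tom+ oil replicate 2 (135 CPM), in the CPM defined above. The other Tom- libraries held 119.7 to 263 CPM and the other Tom+ libraries 1225 to 1546 CPM. Labels were kept, and results that rest on oil libraries are followed by their values without both where a call, an order or a range changed. The 7 hepatocyte markers, Tat left out, summed to 88790 to 118400 CPM in oil. In CCl4 they summed to 126700 to 136700 CPM in Tom- and 97310 to 110400 CPM in Tom+. Between these 2 fractions 6 of the 7 had a negative log2 fold change (median -0.168), and 0 were called. The 5 lymphocyte markers summed to at most 0.359 CPM, with Cd79a and Ms4a1 at 0 in all Tom- oil libraries. Summed endothelial markers were 212 to 231 CPM in Tom- CCl4 and 111 to 149 CPM in Tom+ CCl4, where 4 of 7 were lower in Tom+ (5 with the replicate block described below), and 82.4 to 154 CPM in oil. The 8 macrophage markers summed to 15.5 to 122 CPM in oil and 61.6 to 186 CPM in CCl4, and the 8 stellate markers to 6.90 to 21.3 and 47.3 to 93.7 CPM. Of the 6 cholangiocyte markers, which summed to 5.25 to 17.9 CPM, Krt19 and Krt7 were at 0 in all oil libraries.

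Levels can be compared between genes only per length, in TPM, which scale counts to gene length and library size. Tat, Hpd and Uroc1 held the first 3 places in this order in all 4 groups. Tat had 1976 ± 183.5 TPM in Tom- oil (mean ± SD, n = 3 here and below) and 1468 ± 222 TPM in Tom+ CCl4, and its libraries overlapped those of Hpd in both Tom+ groups but not in the Tom- groups. Uroc1 did not overlap its neighbours in the order in any group. Sds held the fourth place in 3 groups, with 452 ± 60.5 TPM in Tom- oil, 512 ± 79.6 in Tom+ oil and 330.5 ± 76.2 in Tom- CCl4, and the seventh place with 148.5 ± 44.8 TPM in Tom+ CCl4. Without both discordant oil libraries Sds moved to the fifth place in Tom- oil (418.5 TPM, beside 423 for Tdo2), and the order in Tom+ oil was the same. The last 2 places were those of Hal and Amdhd1 in every group, and these overlapped each other. In Tom+ CCl4, all neighbours from Tdo2 in the fourth place down to Hal in the ninth overlapped. Together the 9 genes made up 3466 to 4709 TPM of each Tom+ CCl4 library, 3964 to 5159 of each Tom- CCl4 library and 5619 to 6900 of each oil library.

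**Figure D1:**
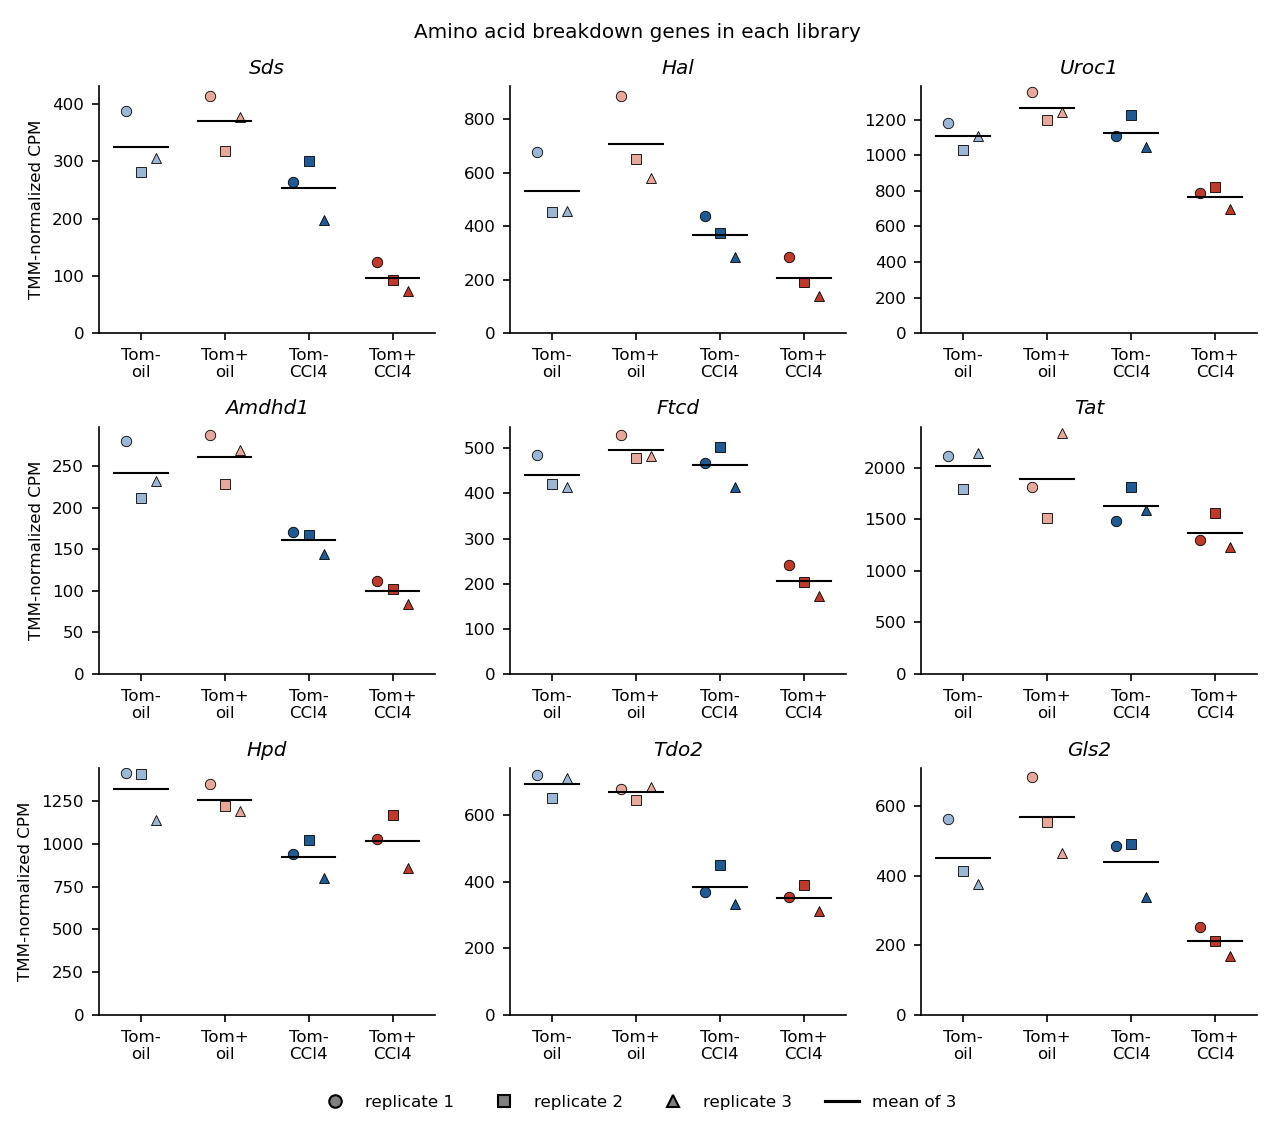
TMM-normalized CPM of each gene (vertical axis, from 0) in the 12 libraries, grouped by fraction and treatment. Symbols stand for replicate numbers and black lines for the mean of 3. For Sds, Hal, Uroc1, Amdhd1, Ftcd and Gls2 the Tom+ CCl4 libraries lie below all others, whereas for Tdo2 both CCl4 groups lie below both oil groups.

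The first question was how the p16-labelled hepatocytes of injured liver differ from the unlabelled ones. A gene was counted as changed at an adjusted p under 0.05 (edgeR's quasi-likelihood test, Benjamini-Hochberg over all genes tested) and a log2 fold change beyond 0.75. With CCl4, 3 of the 9 genes were lower in the Tom+ fraction and 0 were higher, beside 1.74% of all genes tested that were lower and 0.222% that were higher. By the adjusted p alone 5 of the 9 were lower, beside 3.83% of all genes. The median log2 fold change of the 9 was -0.69, beside 0.0042 over all genes. In CPM, all Tom+ libraries lay below all Tom- libraries for 6 of the 9, which held for 14.6% of all genes. In TPM the fractions overlapped for Hal, at 61.4 to 135 in Tom+ CCl4 and 108 to 177 in Tom- CCl4. Fewer cells that express a gene and less of its RNA per cell cannot be told apart in these bulk libraries.

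Sds, serine dehydratase (ENSMUSG00000029597, chr5:120476526-120483932 on mm10, plus strand), showed the strongest difference of the 9. In Tom- CCl4 it was at 264, 300.3 and 198 CPM in replicates 1, 2 and 3, and in Tom+ CCl4 at 125, 92.7 and 72.9 CPM. The highest Tom+ library was below the lowest Tom- library, and Tom+ was lower in 3 of 3 same-numbered pairs. The difference was 2.62-fold (log2 fold change -1.39 ± 0.206 SE, edgeR adjusted p = 0.00625). In oil the same gene was at 388, 282 and 307 CPM in Tom- and 415, 318 and 377 CPM in Tom+, with overlapping groups.

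The 4 genes of histidine breakdown were lower in Tom+ CCl4 to unequal extents, and only the last enzyme of the route passed both thresholds. Hal, histidine ammonia-lyase (ENSMUSG00000020017, chr10:93488768-93519304, plus strand), was at 436, 376 and 284 CPM in Tom- CCl4 and 283, 191 and 138 CPM in Tom+ CCl4. Its lowest Tom- and highest Tom+ library lay next to each other. The log2 fold change of -0.84 ± 0.276 passed the fold threshold, but the adjusted p was missed (edgeR adjusted p = 0.101). When same-numbered libraries were treated as pairs (a replicate block in the fit), the difference was -0.88 and passed (edgeR adjusted p = 2.94e-05), which made 4 of 9, beside 3.25% of all genes. It also passed without Tom+ CCl4 replicate 1, the highest Tom+ library (-1.15, edgeR adjusted p = 0.0451).

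Uroc1, urocanate hydratase (ENSMUSG00000034456, chr6:90333284-90364551, plus strand), was at 1108, 1225 and 1048 CPM in Tom- CCl4 and 788, 820.3 and 697 CPM in Tom+ CCl4. The groups were well apart but the difference was 1.47-fold, so that it passed the adjusted p and not the fold threshold (log2 fold change -0.55 ± 0.102, edgeR adjusted p = 0.00979). It passed neither without Tom- CCl4 replicate 2 (-0.49, edgeR adjusted p = 0.0643). Amdhd1, which opens the ring of imidazolone propionate (ENSMUSG00000015890, chr10:93523338-93540033, minus strand), was at 170, 167 and 145 CPM in Tom- CCl4 and 111, 103 and 84.3 CPM in Tom+ CCl4. Here too the groups did not overlap and the adjusted p was passed without the fold (-0.69 ± 0.132, edgeR adjusted p = 0.0113). Its fold passed the threshold without Tom- CCl4 replicate 3 (-0.76) or without Tom+ CCl4 replicate 1 (-0.78), and the adjusted p was missed without Tom- CCl4 replicate 2 (0.0643) or Tom+ CCl4 replicate 2 (0.0511).

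Ftcd, which moves the formimino group of the histidine route to folate (ENSMUSG00000001155, chr10:76575648-76590338, plus strand), was at 468, 503 and 415 CPM in Tom- CCl4 and 240.4, 204 and 172 CPM in Tom+ CCl4. The Tom- libraries stood close to the oil libraries of either fraction, at 415 to 529 CPM, and the 3 Tom+ CCl4 libraries stood apart from all others. The difference was 2.25-fold (-1.17 ± 0.124, edgeR adjusted p = 0.00129), the smallest adjusted p of the 9 in this comparison. Relative to Hal, on the TPM scale, Uroc1 was 3.43 ± 0.567 in Tom- oil, 2.94 ± 0.49 in Tom+ oil, 5.06 ± 0.93 in Tom- CCl4 and 6.46 ± 1.84 in Tom+ CCl4. This ratio was higher in each CCl4 library than in any oil library (4.06 to 8.07 against 2.45 to 3.87, the range in oil being the same without both discordant libraries). The ratio of Ftcd to Hal did not separate the treatments, with 1.48 to 2.54 in CCl4 and 1.04 to 1.61 in oil. That of Amdhd1 to Hal overlapped as well, at 1.06 ± 0.106 in Tom- oil, 0.869 ± 0.168 in Tom+ oil, 1.03 ± 0.138 in Tom- CCl4 and 1.18 ± 0.253 in Tom+ CCl4.

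The promoters of these 4 genes are shown because each was lower in CPM in every Tom+ CCl4 library than in any other library. For Hal this did not hold in TPM. The table of RefSeq promoters used here matched 7 of the 9 genes, all but Sds and Gls2. The sequences are the 250 bases before the RefSeq start on GRCm38.p6, and capitals mark 4 motifs read on either strand. These are TATAAA (the core promoter element of that name), CCAAT (an element often found further upstream), TGACG (the core of a cyclic AMP response element) and CTTTGAT (the core of a TCF/LEF site). CAAAGTC (the core of HNF4 sites) and TGTTCT (part of a glucocorticoid response element) were searched too.
Hal (chr10:93488518-93488767, plus strand): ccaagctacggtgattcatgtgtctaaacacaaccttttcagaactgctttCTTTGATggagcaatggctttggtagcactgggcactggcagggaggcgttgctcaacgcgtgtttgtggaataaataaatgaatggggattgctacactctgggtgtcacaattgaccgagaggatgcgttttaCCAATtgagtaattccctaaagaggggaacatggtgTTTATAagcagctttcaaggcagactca
Uroc1 (chr6:90333039-90333288, plus strand): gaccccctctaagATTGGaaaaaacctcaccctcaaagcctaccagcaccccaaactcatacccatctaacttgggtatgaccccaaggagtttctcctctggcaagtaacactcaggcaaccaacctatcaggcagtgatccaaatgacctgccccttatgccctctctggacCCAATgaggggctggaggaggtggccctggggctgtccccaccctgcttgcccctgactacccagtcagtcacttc
Amdhd1 (chr10:93540034-93540283, minus strand): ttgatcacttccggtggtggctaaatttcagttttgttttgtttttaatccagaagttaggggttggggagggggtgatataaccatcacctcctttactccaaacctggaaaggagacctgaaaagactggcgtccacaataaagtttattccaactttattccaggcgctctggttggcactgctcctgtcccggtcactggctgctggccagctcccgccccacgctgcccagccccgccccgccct
Ftcd (chr10:76575398-76575647, plus strand): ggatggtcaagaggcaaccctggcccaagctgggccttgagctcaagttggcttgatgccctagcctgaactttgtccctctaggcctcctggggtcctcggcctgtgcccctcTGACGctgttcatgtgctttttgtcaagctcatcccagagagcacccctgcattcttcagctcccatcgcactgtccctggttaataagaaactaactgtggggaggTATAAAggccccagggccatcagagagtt
Hal holds CTTTGAT from 199 to 193 bases before the start, CCAAT from 64 to 60 and TATAAA on the opposite strand from 28 to 23. Ftcd holds TGACG from 136 to 132 and TATAAA from 29 to 24 bases before the start, Uroc1 has CCAAT on either strand, and Amdhd1 holds none of the 6 motifs. Among 32851 promoters of the same length, 3.21% hold CTTTGAT, 12.4% TATAAA, 33.8% CCAAT, 17.8% TGACG, 3.84% CAAAGTC and 16.1% TGTTCT. No motif was common to the 4 promoters, and a match is a run of letters, not a measured binding site.

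Gls2, the liver glutaminase (ENSMUSG00000044005, chr10:128194457-128210004, plus strand), was at 487.5, 491 and 340 CPM in Tom- CCl4 and 252, 214 and 169.5 CPM in Tom+ CCl4. All Tom+ libraries were below the lowest Tom- library, replicate 3. The difference was 2.07-fold (-1.05 ± 0.205, edgeR adjusted p = 0.0148). It no longer passed without Tom- CCl4 replicate 2 (-0.96, edgeR adjusted p = 0.0759) or without Tom+ CCl4 replicate 2 (-1.06, edgeR adjusted p = 0.0668). Glul, the glutamine synthetase of zone 3, was at 133 ± 78 CPM in Tom- CCl4 and 358.5 ± 124 in Tom+ CCl4, opposite to Gls2. Its log2 fold change was 1.43 ± 0.833 (edgeR adjusted p = 0.357), and it passed with the replicate block (1.51, edgeR adjusted p = 0.0361).

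For the genes of aromatic amino acids the fractions overlapped. Tat, tyrosine aminotransferase (ENSMUSG00000001670, chr8:109990437-109999803, plus strand), was at 1480, 1809 and 1591 CPM in Tom- CCl4 and 1297, 1561 and 1235 CPM in Tom+ CCl4. Its log2 fold change was -0.25 ± 0.153 (edgeR adjusted p = 0.354), with Tom+ the lower in 3 of 3 pairs, and with the replicate block it passed the adjusted p and not the fold (-0.26, edgeR adjusted p = 0.0416). Hpd, which turns hydroxyphenylpyruvate into homogentisate (ENSMUSG00000029445, chr5:123171807-123182727, minus strand), was at 942, 1024 and 798 CPM in Tom- and 1027, 1166 and 859 CPM in Tom+. It was the only one of the 9 with a positive value (0.14 ± 0.133, edgeR adjusted p = 0.572), Tom+ being the higher in 3 of 3 pairs. Tdo2, tryptophan dioxygenase (ENSMUSG00000028011, chr3:81957090-81976202, minus strand), was at 368.5, 451 and 333 CPM in Tom- and 353, 389.9 and 313 CPM in Tom+. The log2 fold change was -0.13 ± 0.116 (edgeR adjusted p = 0.566). Whether these 3 genes differ from the other 6 in their response was not tested, since the groups of genes were read from these values.

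**Figure D2:**
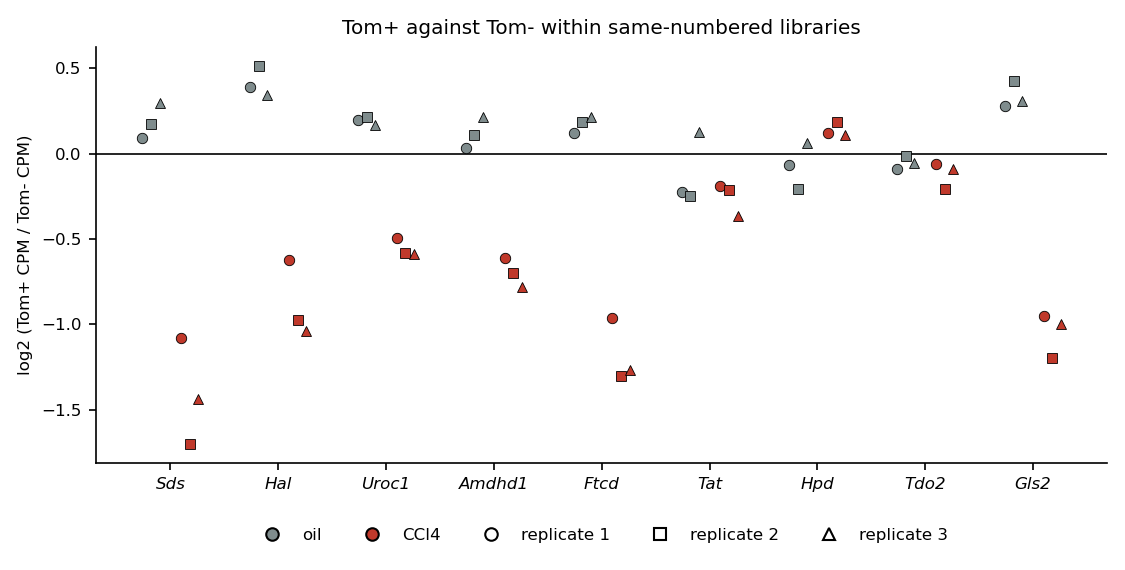
Log2 ratio of Tom+ to Tom- CPM (vertical axis) for each gene within same-numbered libraries, in oil (grey) and CCl4 (red). For the 6 genes of serine, histidine and glutamine breakdown, the CCl4 pairs lie between -0.49 and -1.70 and the oil pairs between 0.03 and 0.52, and for Tat, Hpd and Tdo2 all pairs lie between -0.37 and 0.19.

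Markers of liver zones moved with these differences. Of the 14 zone 1 markers, 13 were tested, of which 13 had a negative log2 fold change between Tom+ and Tom- CCl4 (median -0.73) and 5 were lower (Cyp2f2, Cdh1, Hsd17b13, Etnppl and Ctsc, or 6 markers with the replicate block). Their summed level was 9217 to 11470 CPM in Tom- CCl4 and 5943 to 7500 CPM in Tom+ CCl4, and in oil 11200 to 14430 CPM in Tom- and 11590 to 14280 CPM in Tom+, where Rbp7 was at 0 in all Tom- libraries. All 14 zone 3 markers had a positive value (median 0.97), 2 were higher (10 with the replicate block), and they summed to 1740 to 2900 CPM in Tom- CCl4 and 3959 to 5391 CPM in Tom+ CCl4. In oil these sums were 2114 to 5507 CPM in Tom- and 899 to 2822 CPM in Tom+, with 0 markers called lower in Tom+ (4 with the replicate block). Without both discordant libraries the fractions did not overlap in oil, with zone 3 sums of 3244 to 5507 CPM in Tom- and 899 to 1564 CPM in Tom+ and zone 1 sums of 11200 to 11470 and 12710 to 14280 CPM (2 libraries each). The part of zone in the differences of Sds, Hal, Uroc1, Amdhd1, Ftcd and Gls2 was not tested. Nor was that of the endothelial cells or of the hepatocyte marker levels given above.

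The same sort in oil-treated mice gave no changed gene among the 9. No gene of all those tested passed both thresholds there (0%), and 1198 genes (7%) had an unadjusted p under 0.05, of which 0 were among the 9. DESeq2 and limma-voom also called 0 of the 9. Sds, Hal, Uroc1, Amdhd1, Ftcd and Gls2 were each higher in Tom+ in 3 of 3 same-numbered pairs, the reverse of the CCl4 pairs. Only pair 3 set a reporter-high Tom+ library (1225 CPM) against a reporter-low Tom- library (143 CPM). In pair 1 the reporter was high in both (1794 CPM in Tom- and 1546 in Tom+). In pair 2 it was low in both (157 and 135 CPM). Uroc1 was the only one of the 9 whose groups did not overlap, with 1033 to 1183 CPM in Tom- and 1198 to 1358 CPM in Tom+ (0.19 ± 0.102, edgeR adjusted p = 0.751), a pattern found upward in 6.11% of genes. Hal was at 677, 454 and 457 CPM in Tom- oil and 886, 649 and 580 CPM in Tom+ oil (0.41 ± 0.274, edgeR adjusted p = 0.808). Gls2 was at 564, 413.5 and 376 CPM in Tom- oil and 685, 556 and 467 CPM in Tom+ oil (0.34 ± 0.203, edgeR adjusted p = 0.788). With the replicate block, which rests on the same 3 pairs, Hal (0.42, edgeR adjusted p = 0.0362) and Gls2 (0.34, edgeR adjusted p = 0.0457) passed the adjusted p and not the fold threshold. Without both libraries with a discordant reporter the log2 fold changes were 0.67 for Hal, 0.53 for Gls2 and 0.41 for Sds, and 0 of the 9 passed. In the 2 libraries a fraction that then remained, the Tom+ libraries lay above the Tom- libraries for all 6 of these genes (Sds, Hal, Uroc1, Amdhd1, Ftcd and Gls2), as for 18.9% of all genes.

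Whether the fraction difference itself depended on treatment was tested as an interaction. It was negative and past both thresholds for 4 of the 9 genes, where 0.958% of all genes were. The log2 difference between the CCl4 and the oil contrast was -1.34 ± 0.173 for Ftcd (edgeR adjusted p = 0.00738), -1.57 ± 0.288 for Sds (0.0276), -1.39 ± 0.289 for Gls2 (0.0407) and -0.81 ± 0.186 for Amdhd1 (0.0487). Uroc1 passed the adjusted p and came just short of the fold (-0.75 ± 0.144, edgeR adjusted p = 0.0296), and Hal had -1.25 ± 0.388 (edgeR adjusted p = 0.124). With the replicate block Hal passed too (-1.30, edgeR adjusted p = 2.6e-05), which made 5 of 9, where 4.19% of all genes were lower. Without both discordant oil libraries the 4 genes kept their calls, Uroc1 passed too (-0.83, edgeR adjusted p = 0.0381) and Hal did not (-1.52, 0.175). Tat, Hpd and Tdo2 had interactions of -0.16 ± 0.216, 0.22 ± 0.188 and -0.07 ± 0.164, with edgeR adjusted p from 0.576 to 0.853.

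The interaction of Ftcd passed under each of 21 alternatives (highest adjusted p 0.0317), whereas those of the other genes depended on single libraries in the fit without the block. Sds did not pass without Tom- oil replicate 2, Tom+ oil replicate 1, Tom- CCl4 replicate 2 or Tom+ CCl4 replicate 2 (edgeR adjusted p from 0.0649 to 0.086). Gls2 did not pass without Tom- oil replicates 2 or 3, Tom+ oil replicates 1 or 2, Tom- CCl4 replicates 1 or 2, or Tom+ CCl4 replicates 2 or 3 (edgeR adjusted p from 0.0591 to 0.112), nor with no filter on low counts (0.0718). Amdhd1 passed without Tom- oil replicate 1, Tom+ oil replicate 2 or Tom- CCl4 replicate 3 and under none of the other 9 omissions (edgeR adjusted p from 0.0504 to 0.136).

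The response to CCl4 was then compared in each fraction. These contrasts use the same libraries as those above, so the values are given side by side and not as separate evidence. In Tom- hepatocytes 1 of the 9 genes, Tdo2, was lower in CCl4 than in oil, where 1.59% of all genes were lower, and 3 passed the adjusted p alone, as did 6.75% of all genes. In Tom+ hepatocytes 6 of the 9 were lower (Sds, Hal, Amdhd1, Ftcd, Tdo2 and Gls2), where 2.34% of all genes were lower, and 7 by the adjusted p alone, beside 4.56%. The CCl4 libraries lay below all oil libraries for 4 of the 9 in Tom- (Hal, Amdhd1, Hpd and Tdo2), as for 16.8% of genes, and for 8 of the 9 in Tom+, as for 14.6% of genes. Tat was the exception in Tom+. The counts without both discordant oil libraries were 4 of 9 in Tom-, as for 20.8% of genes, and 9 of 9 in Tom+, as for 19.2% of genes. The median log2 fold change of the 9 was -0.36 in Tom- and -1.27 in Tom+.

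Tdo2 was lower in both fractions. It was at 721, 651 and 711 CPM in Tom- oil and 678, 645 and 685 CPM in Tom+ oil, well above the CCl4 libraries, of which the highest had 451 CPM. CCl4 lowered it 1.81-fold in Tom- (-0.85 ± 0.117, edgeR adjusted p = 0.000647) and 1.90-fold in Tom+ (-0.93 ± 0.117, edgeR adjusted p = 0.000374). It was called in both fractions under all alternatives run, with log2 fold changes from -0.76 to -0.98 in Tom- and from -0.85 to -1.01 in Tom+.

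Among the genes of serine, histidine and glutamine breakdown the Tom+ values were the larger. Sds was 3.82-fold lower in Tom+ CCl4 than in Tom+ oil (-1.93 ± 0.209, edgeR adjusted p = 2e-04), beside -0.36 ± 0.202 in Tom- (0.25). Hal was 3.45-fold lower in Tom+ (-1.79 ± 0.282, edgeR adjusted p = 0.00352), beside -0.53 ± 0.274 in Tom- (0.21). Gls2 was 2.69-fold lower in Tom+ (-1.43 ± 0.207, edgeR adjusted p = 0.00139), while its Tom- libraries overlapped, with 340 to 491 CPM in CCl4 and 376 to 564 CPM in oil (-0.04 ± 0.203, edgeR adjusted p = 0.924). For Ftcd the fall in Tom+ was 2.42-fold (-1.27 ± 0.124, edgeR adjusted p = 4.42e-05) and the Tom- value 0.07 ± 0.122 (0.737).

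Amdhd1 was at 280.1, 211 and 232 CPM in Tom- oil and 287, 228 and 269 CPM in Tom+ oil, above every CCl4 library. Its difference was 2.63-fold in Tom+ (-1.39 ± 0.134, edgeR adjusted p = 4.12e-05) and the log2 fold change in Tom- fell short of the threshold (-0.59 ± 0.132, edgeR adjusted p = 0.00996). Uroc1 passed the adjusted p in Tom+ at -0.72 ± 0.102 (edgeR adjusted p = 0.000836), just short of the fold, and was at 0.03 ± 0.101 in Tom- (0.892). It passed both thresholds without Tom+ oil replicate 2 (-0.76), without Tom+ CCl4 replicate 2 (-0.77) and without both discordant oil libraries (-0.75). Without those libraries no other member gained or lost a call in either fraction.

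Hpd was at 1412, 1408 and 1141 CPM in Tom- oil and 1351, 1218 and 1193 CPM in Tom+ oil. All CCl4 libraries of each fraction lay below its oil libraries, and the adjusted p was passed in Tom- (-0.52 ± 0.133, edgeR adjusted p = 0.0189) and missed in Tom+ (-0.30 ± 0.133, edgeR adjusted p = 0.182). It was missed in Tom- too without both discordant oil libraries (-0.46, edgeR adjusted p = 0.0869). Tat was at 2116, 1788 and 2141 CPM in Tom- oil and 1812, 1507 and 2338 CPM in Tom+ oil, the latter the widest of its 4 groups. Its log2 fold change with CCl4 was -0.31 ± 0.153 in Tom- (edgeR adjusted p = 0.184) and -0.47 ± 0.153 in Tom+ (edgeR adjusted p = 0.0741), where it passed the adjusted p and not the fold without both discordant oil libraries (-0.60, edgeR adjusted p = 0.0445).

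**Figure D3:**
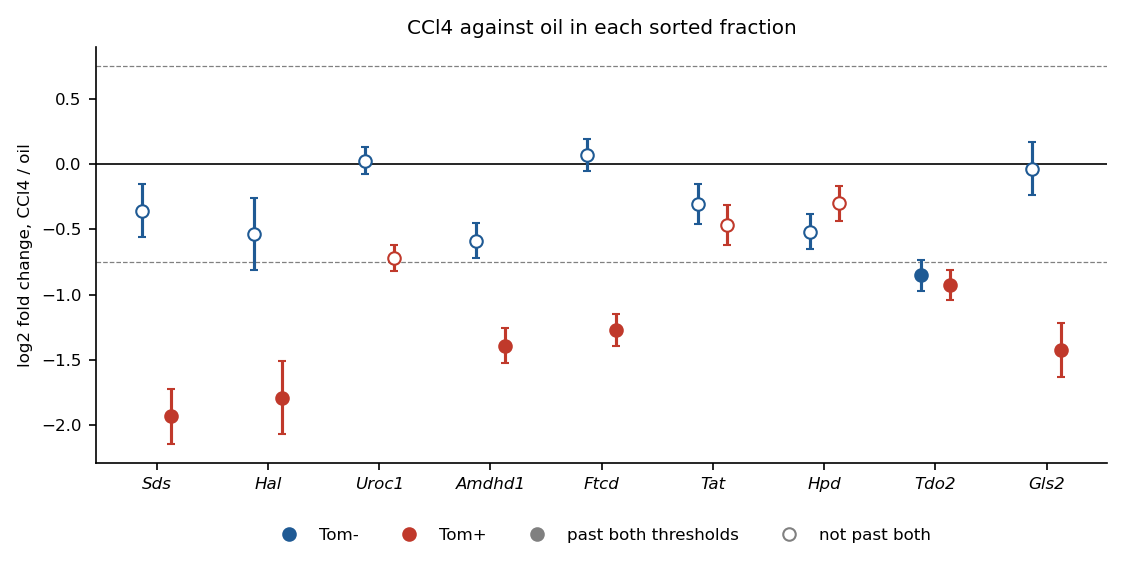
Log2 fold change of CCl4 against oil (vertical axis) for each gene in Tom- (blue) and Tom+ (red) hepatocytes, with bars of 1 SE of the fitted value and dashed lines at a log2 fold change of 0.75 in either direction. Filled points passed both thresholds, which 1 gene did in Tom- and 6 did in Tom+.

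Beside the 9, a list of other genes of amino acid breakdown held 70 genes of the table, of which 69 were tested. Between Tom+ and Tom- CCl4, 3 were lower and 0 higher, beside 1.74% and 0.222% of all genes, and the median log2 fold change was 0.06. The 3 were Aspg, an asparaginase (-1.42 ± 0.133, edgeR adjusted p = 0.000905), Sdsl, a relative of Sds (-1.11 ± 0.18, 0.00672), and Prodh2, which acts on hydroxyproline (-0.90 ± 0.13, 0.00505). Aspg fell from 211 ± 34.6 CPM in Tom- to 78.6 ± 11.4 CPM in Tom+. Hgd and Fah, which act downstream of Hpd, had 0.03 ± 0.107 and 0.07 ± 0.0992 (edgeR adjusted p = 0.884 and 0.735). In oil 0 of the 69 were called by edgeR, DESeq2 or limma-voom, and 7 had an unadjusted p under 0.05, beside 7% of all genes. With the replicate block 1 was, Oat, ornithine aminotransferase (-1.26, edgeR adjusted p = 5.1e-05). That fit also called Oat higher in Tom+ CCl4 (1.49, edgeR adjusted p = 2.01e-06). Oat is itself among the zone 3 markers counted above. It spread widely in oil, at 494 ± 329 CPM in Tom- and 214 ± 171 CPM in Tom+.

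In Tom- hepatocytes 5 of the 69 were lower in CCl4, beside 1.59% of all genes, and 61 had a negative log2 fold change (median -0.31). They were Oat (-2.60), Bhmt, a homocysteine methyltransferase (-0.87), Ppm1k, which activates branched-chain ketoacid breakdown (-0.84), Got1, an aspartate aminotransferase (-0.83), and Aadat, which acts on aminoadipate and kynurenine (-0.77), with edgeR adjusted p from 0.00252 to 0.0386. No gene of the list passed without Tom- CCl4 replicate 3, and 2 genes of the list passed without Tom- oil replicate 1 or without both discordant oil libraries, and 3 without Tom- oil replicate 3 or Tom- CCl4 replicate 1. In Tom+ hepatocytes 4 were lower, beside 2.34% of all genes, namely Sdsl (-1.67), Got1 (-1.47), Aspg (-1.26) and Gpt, alanine aminotransferase (-0.90). Csad, of taurine synthesis from cysteine, was the 1 gene that was higher (1.23 ± 0.157, edgeR adjusted p = 0.000381). The count in Tom+ was 10 without Tom+ oil replicate 3 or without Tom+ CCl4 replicate 2, and 8 without Tom+ CCl4 replicate 1. Without both discordant oil libraries these 5 genes were called too, and Kmo, of the kynurenine route of tryptophan, was lower as well (-0.77, edgeR adjusted p = 0.00112). The interaction was past both thresholds for Aspg (-1.40) and Sdsl (-1.11) downward and for Csad (1.06) and Cdo1 (0.80), a cysteine dioxygenase, upward. Without both discordant oil libraries Aspg (-1.42, edgeR adjusted p = 0.0226) and Sdsl (-1.41, 0.0248) passed, Csad (1.15, 0.0711) and Cdo1 (0.70, 0.129) did not, and Oat passed upward (3.94, 0.027). With the replicate block Oat (2.74, edgeR adjusted p = 3.51e-07) and Prodh2 (-0.77, 0.000318) were called for the interaction as well.

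**Figure D4:**
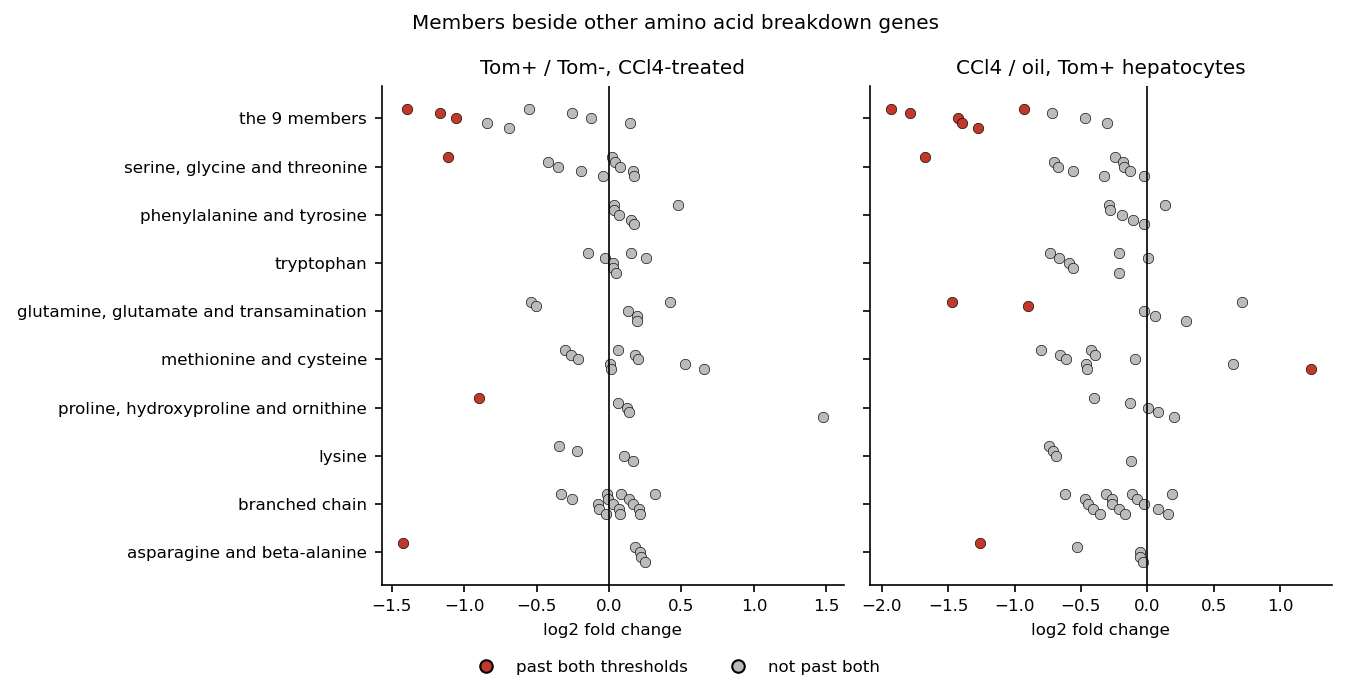
Log2 fold change (horizontal axis) of the 9 genes and of the 69 other tested genes of amino acid breakdown by pathway (rows), for Tom+ against Tom- in CCl4 and for CCl4 against oil in Tom+. Each point is a gene, red where it passed both thresholds, as 3 of 9 and 3 of 69 did on the left and 6 of 9 and 5 of 69 on the right.

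The genome positions bear on what the counts of 2 members hold. Sds is overlapped on the opposite strand by Gm15690, which lies inside it, and by the 3′ end of Plbd2, a lysosomal protein gene. Gm15690 shares 141 of its 432 exon bases with Sds and Plbd2 shares 360 of 6620, which is 8.32% and 21.3% of the 1694 exon bases of Sds. These were also the 2 genes whose log2 CPM over the 12 libraries followed Sds most closely (Pearson's r of 0.998 and 0.983, among 7748 genes). The level of Gm15690 was 17.7% to 20.3% of that of Sds in all 12 libraries, while Sds itself ranged from 72.9 to 415 CPM and Gm15690 from 14.0 to 79.7 CPM. Plbd2 was at 125.5 ± 16.3 CPM in Tom- CCl4 and 71.6 ± 3.66 in Tom+ CCl4 (-0.81 ± 0.0986, edgeR adjusted p = 0.00208). The libraries were strand-specific, but the strand setting of the counting is not given in the sources used here. Reads of Sds and of these genes therefore cannot be told apart within the shared exon bases. Sdsl begins 3716 bases away on the opposite strand and shares no exon with Sds. At the other locus, Hal and Amdhd1 lie end to end on opposite strands, 4034 bases apart, with an r of 0.962 over the 12 libraries. Gls2 shares 97 exon bases with Spryd4 on the opposite strand, and Hpd lies within Psmd9 but shares no exon base with it.

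**Figure D5:**
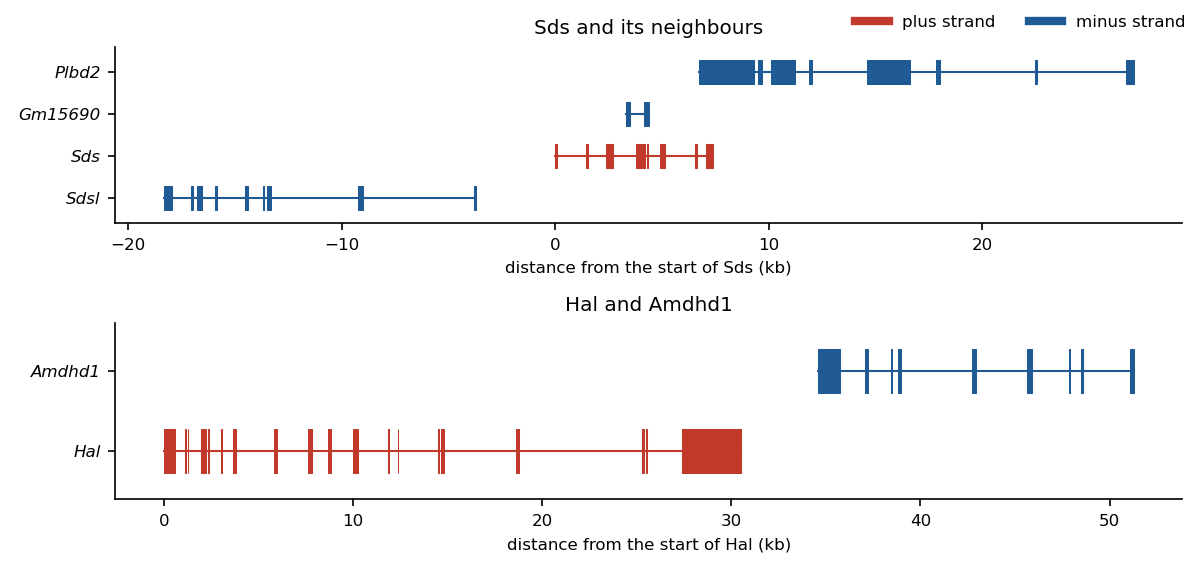
Exons (boxes) of Sds and Hal and their neighbours, with the distance in kb from the start of Sds (top) or Hal (bottom) on the horizontal axis and strand by colour. Gm15690 lies within Sds on the other strand and the end of Plbd2 reaches into the end of Sds, whereas Hal and Amdhd1 do not overlap.

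The 9 genes varied together over the libraries. The 36 pairs had a median r of 0.818 over the 12 libraries, from 0.391 for Ftcd with Hpd to 0.97 for Ftcd with Sds or Uroc1. With the group means removed the median was 0.7 and 34 of 36 were positive, so that libraries of 1 group also deviated together. These points share library, depth and scaling. The genes most like the mean profile of the 9 were Nnmt (r 0.978), Asl (0.976), Gm15690 (0.975), Bdh2 (0.972) and Got1 (0.972). Of these, Asl is itself a zone 1 marker. Gm15690 shares exon bases with Sds, so its values of r here and below may partly be those of Sds. For single genes the closest were Acsm2 for Hal (0.974), Gm15690 for Uroc1 (0.97), Nnmt for Amdhd1 (0.969), Aspg for Ftcd (0.974), Pck1 for Tat (0.937), Dpyd for Hpd (0.966), Ugt3a1 for Tdo2 (0.985) and Gldc, of glycine cleavage, for Gls2 (0.974).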

How the data were processed

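The 12 RNA-seq libraries of sorted hepatocytes were grouped by the labels. Per the labels and the study's methods, poly-A RNA was made into strand-specific libraries, and the authors used fastp (v0.23.2) and HISAT2 (v2.1.0) on mm10 and DESeq2 (v1.42.1). The methods name TPMcalculator for TPM values, without saying whether it made the deposited counts, and the strand setting of the counting and the annotation release are not given in the sources used here. The deposited table holds expected counts per feature, not normalized, with positions and lengths. Of the values above 0 in each library, 30.4% to 32.9% had decimals, so the expected counts were rounded, which took at most 0.0118% of a count of a member; the planned test had assumed whole counts. All sample columns were used, and 54723 of 54839 identifiers (99.8%) matched a symbol.

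Counts were fitted with edgeR (v4.0.16, under R v4.3.3), using TMM normalization, filterByExpr (17121 genes kept) and the robust quasi-likelihood test, with 1 coefficient per group over the 12 libraries and Benjamini-Hochberg adjustment over all genes kept. The thresholds were an adjusted p under 0.05 together with a log2 difference beyond 0.75. CPM are TMM-normalized, and TPM were computed from the deposited counts and lengths. Correlations were taken over log2 CPM (prior count 2), and genes were compared with a member at a mean of at least 10 CPM. Total counts ranged from 37568669 to 75331523 (median 47910873), and every member had at least 3492 counts in each library, so that counting error was small beside the spread between libraries.

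The members and all gene lists were chosen with earlier results of these data known. Named genes were every member, the called genes of the lists of other breakdown genes and transporters (at most 6 per direction and contrast), Sdsl, Hgd, Fah and Glul, the genes most alike in profile, and neighbours on the genome, the last chosen after their values were seen. Marker names are those called in a list. The values of 1 further gene that the rule names are not reported here. Alternatives were RLE and upper-quartile normalization, no filter and at least 10 counts in every library, DESeq2 (v1.42.0), limma-voom (limma v3.58.1), edgeR over 6 libraries, the adjusted p alone, a replicate block, same-numbered libraries summed, each library left out, and both discordant oil libraries left out (for the lists, the order of levels, the marker sums and the overlap of groups, chosen after the data were seen).

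Pairing was checked by correlating the deviations of libraries from their group means over 13061 genes. Within a treatment, same-numbered Tom+ and Tom- libraries correlated at 0.415 to 0.613 in CCl4 and 0.353 to 0.449 in oil. For different numbers the means were -0.248 and -0.2. As the deviations of a group sum to 0, these negative means largely follow from the positive values and are no separate evidence of pairing. The numbers come from the labels and were taken to pair the fractions, and the blocked value is printed where it changed a call of a member, or a count of a list between the fractions. Between treatments same-numbered libraries correlated more weakly, at 0.0368 to 0.0737 in Tom- and 0.0317 to 0.299 in Tom+. The fits were tested on simulated counts with 200 changed genes. Promoters are those of RefSeq on GRCm38.p6. Python (v3.11.15) served for sequences and, with the package matplotlib (v3.10.9), for plots.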

Additional observations from a re-analysis of the deposited data

Results flagged for a closer look

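For 4 genes the difference between Tom+ and Tom- hepatocytes itself differed between CCl4-treated and oil-treated mice by edgeR's quasi-likelihood test of the interaction. The log2 difference was -1.575 for Sds (edgeR adjusted p = 0.0276), -0.81 for Amdhd1 (0.0487), -1.34 for Ftcd (0.00738) and -1.39 for Gls2 (0.0407). For each of the 4, the Tom+ library was below its same-numbered Tom- library in 3 of 3 pairs with CCl4 and above it in 3 of 3 with oil. With oil, only pair 3 set a reporter-high Tom+ library against a reporter-low Tom- library. Groups of 3 libraries were not searched for single libraries that stand apart.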

How the results depend on the processing

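Over all alternatives, 709 fold changes of the 9 genes kept their direction and side of the threshold, 27 gained and 25 lost the call, and 13 turned direction; 33 counts of called genes moved by over 1.5 times. The tally includes the fit of summed same-numbered libraries, whose single result for both fractions together was set beside that of each fraction. There, for CCl4 against oil in Tom-, Uroc1 and Ftcd turned direction and Sds, Hal, Amdhd1 and Gls2 gained the call. In Tom+ Ftcd lost it. The causes were not tested. By the adjusted p alone, 5 of the 9 genes and 8 of the other breakdown genes passed between Tom+ and Tom- CCl4, 3 and 28 between CCl4 and oil in Tom-, and 20 others in Tom+. Of all genes tested, 5.79%, 16.1% and 9.47% passed by it in these comparisons. With same-numbered libraries summed, 5 of the 9 and 3 others were called for CCl4 against oil, where Uroc1 had -0.38 and Ftcd -0.59. The share of all genes called in that fit is not given here. Without a filter on low counts 2 others were called in Tom-. Without both discordant oil libraries 2 others were called in Tom-, Tat had 0.064 between the oil fractions and Gls2 0.16 in Tom-. With the replicate block 1 other gene was called in oil. The block changed no call of the 9 but that of Hal. For CCl4 against oil, where same-numbered libraries correlated more weakly, it called 1 of the 9 in Tom- and 6 in Tom+, as without it.

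Leaving out each library in turn gave 2 to 5 of the 9 called between Tom+ and Tom- CCl4, 1 in CCl4 against oil in Tom-, 6 to 7 in Tom+ and 1 to 5 for the interaction. The other genes called were 3 to 4, 0 to 5, 5 to 10 and 1 to 4 in these comparisons. With all libraries 1.96%, 7.92%, 5.24% and 1.17% of all genes were called in them, and shares under the omissions are not given here. Under these omissions Tdo2 ranged from -0.22 to 0.0046 between the CCl4 fractions, Tat from -0.28 to 0.042 between the oil fractions, Uroc1 from -0.040 to 0.075 and Gls2 from -0.15 to 0.15 for CCl4 against oil in Tom-, and for the interaction Tat from -0.29 to 0.028 and Tdo2 from -0.17 to 0.057. Between the CCl4 fractions, the SEs of Hal, Sds and Gls2 were 0.276, 0.206 and 0.205 without the block and 0.082, 0.0969 and 0.0702 with it, on the same libraries.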

Other observations

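Amino acid transporters, which carry the substrates of these enzymes, were a list of 18 genes, all tested. Between Tom+ and Tom- CCl4 0 were called by edgeR's quasi-likelihood test, while 1 was higher and 4 were lower by the adjusted p alone. With the replicate block 1 was called, Slc43a1 (-0.79, edgeR adjusted p = 0.00255), a carrier of large neutral amino acids. In CCl4 against oil, Slc1a5, a glutamine carrier, rose in Tom- from 3.41 ± 2.39 to 17.4 ± 5.99 CPM (mean ± SD, n = 3, log2 fold change 2.34, edgeR adjusted p = 0.035) and in Tom+ from 3.95 ± 3.24 to 22.1 ± 2.09 CPM (2.48, edgeR adjusted p = 0.0382). Slc7a5, which carries large neutral amino acids, rose in both as well (1.11 and 1.16, edgeR adjusted p = 0.0107 and 0.0104). Its levels were low, with means from 1.24 to 2.68 CPM in Tom- and from 1.57 to 3.53 CPM in Tom+. Slc1a4, a carrier of alanine, serine and cysteine, rose in Tom+ from 5.70 ± 4.84 to 62.7 ± 7.05 CPM (3.46, edgeR adjusted p = 0.0116) and had 1.75 in Tom- (0.0789). Slc16a10, a carrier of aromatic amino acids, rose in Tom+ (0.86, edgeR adjusted p = 0.00379). Slc7a2, a carrier of arginine and lysine, fell in Tom- (-0.77, edgeR adjusted p = 0.00154) and in Tom+ (-1.04, edgeR adjusted p = 0.000227), and Slc43a1 fell in Tom+ (-0.97, edgeR adjusted p = 0.0251). Of the 18, 3 were thus called in Tom- and 6 in Tom+, beside 7.92% and 5.24% of all genes. Without both oil libraries with a discordant reporter, Slc7a2 in Tom-, just short of the fold (-0.75), and Slc7a5 (1.08, edgeR adjusted p = 0.0605) and Slc43a1 (-0.75, 0.125) in Tom+, no longer passed, and Slc1a4 passed in Tom- (1.40, edgeR adjusted p = 0.00981). The interaction was called for Slc16a10 (0.98, edgeR adjusted p = 0.0445) and for Slc38a3, a glutamine carrier (-0.80, 0.0487), of which Slc38a3 did not pass without those libraries (-0.59, 0.157) and Slc1a4 did (3.03, 0.0181).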
